A study of Mus musculus with 6 samples.

Results

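The genes of oxidative phosphorylation (OXPHOS genes), most of which encode subunits of the respiratory chain and of the ATP synthase, were chosen by symbol. The rule took all array probes annotated to Nduf, Uqcr, Sdha to Sdhd, Cyc1, Cycs, Cox4 to Cox8 or Atp5 genes. The OXPHOS genes were 80, measured by 109 probes, among 10252 named genes in all. Complex I had 33 genes, complex II 3, complex III 7, complex IV 14 and complex V 14, beside 7 complex I assembly factors, cytochrome c and 1 probe annotated to the pseudogene Ndufs5-ps. Ndufa4, named for complex I but known as a subunit of complex IV, was counted in complex IV. Other subunits, such as Ndufs1, Sdha and Uqcrfs1, and all subunits encoded by mitochondrial DNA had no named probe and were not analysed here. Of the 80 genes 77 passed the detection filter and were tested, 75 of them detected on all 6 arrays, and a gene was represented by its brightest tested probe. The muscle isoform Cox6a2 and the genes Cox7b and Ndufb4 did not pass that filter.

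Oxidative phosphorylation is the process by which mitochondria pass electrons from nutrients along 4 protein complexes to oxygen, pump protons across the inner membrane and let them flow back through the ATP synthase, complex V. Complex I takes electrons from NADH and complex II from succinate, complex III hands them to cytochrome c, and complex IV gives them to oxygen. Most subunits are encoded in the nucleus and built together with a few subunits from mitochondrial DNA. 

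OXPHOS gene expression was compared between posterior and anterior limb cells of the E10.5 mouse embryo, as labelled, with 3 arrays in each group. Both are immortalized lines, described as mesenchyme, and both carry the temperature-sensitive T antigen of SV40, a viral protein that keeps cells dividing. The labels do not say whether a line is 1 clone or whether its samples were separate cultures, so a p-value covers no more than the spread among the 3 arrays of a line, and that spread may be technical. Levels are normalized log2 intensities. A difference is the posterior mean less the anterior mean in log2 units, given with its standard error (SE) in the limma fit. A gene passed at an adjusted p under 0.05.

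The 2 lines differed widely outside this system. In the limma fit 47.4% of the 9908 tested genes (42.6% of tested probes) passed, 25.9% as higher and 21.5% as lower in posterior. The 6 markers of pluripotent stem cells in the list used were all lower in posterior, Pou5f1 among them (log2 -4.798, SE 0.21), and the 5 measured limb mesenchyme markers were all higher, Twist1 among them (log2 1.55, SE 0.23). Of these 5, Pdgfra and Alx4 were detected on no anterior array and Tbx4 on 1. The limb genes Prrx1, Tbx5 and Hand2 had no named probe. Over the arrays the 6 pluripotency markers averaged 11.20 in anterior, against 6.94 in posterior, and the 5 limb markers 4.88, against 6.51. By these markers the anterior line resembled limb mesenchyme less than the posterior line did, and the group names are those of the labels. Blood markers had no named probe. Of 2 endothelial markers Pecam1 was lower in posterior (log2 -3.02, SE 0.17), and Tek did not pass (log2 0.21, SE 0.17, adjusted p = 0.352). Of 4 muscle markers Actc1 was higher, detected on no anterior array and at 4.98, 7.31 and 5.31 on the posterior arrays, against 4.24, 4.32 and 4.30 on the anterior arrays, with posterior replicate 2 far above the rest. Of 3 epithelial markers Krt8 (log2 3.68, SE 0.23) and Krt18 (log2 4.30, SE 0.21) were higher in posterior. Cdh1 had a negative difference that did not pass (log2 -0.625, SE 0.28, adjusted p = 0.107). Map2, the 1 measured neuronal marker, was higher (log2 0.70, SE 0.20, adjusted p = 0.0225). In bulk RNA fewer cells of a type and less RNA per cell cannot be told apart, and the part of these markers in the results below was not tested.

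Most OXPHOS genes differed little, and those that passed were mostly lower in posterior. Of the 77 tested, 17 were lower in posterior (22.1%), 3 were higher (3.90%) and 57 did not pass, against 21.5% lower and 25.9% higher among all genes. The 77 include assembly factors, cytochrome c and a pseudogene. Among the 68 tested subunits of complexes I to V alone, 13 were lower (19.1%) and 3 higher, with a median difference of -0.19. The difference was negative for 56 of the 77 (72.7%), against 48.0% of all genes. Their median difference was -0.20, against 0.03 over all genes, and 60 of 77 (77.9%) differed by less than 0.5 on the log2 scale, against 53.2% of all genes. A change of 2-fold or more occurred in 2 members, Ndufb9 and Atp5a1, against 19.5% of all genes. In 38 of the 77 the groups did not overlap, against 58.3% of all genes. On the array mean over the 77 genes, the posterior arrays lay at 10.17, 9.99 and 10.10 and the anterior arrays at 10.34, 10.30 and 10.27, so the groups did not overlap. Over all tested genes the array means did not overlap either, but with posterior higher. They were 7.404, 7.417 and 7.408 in posterior, against 7.325, 7.329 and 7.338 in anterior. Of the 20 genes that passed, 10 did so also when any 1 array was left out. With arrays scaled to a common median in place of quantile normalization, 4 of the 20 still passed, Ndufb9, Ndufb2, Ndufb5 and Atp5a1, while the median SE of members was 0.23, against 0.15. That scaling moved the median of all genes to 0.20 and that of the OXPHOS genes to -0.24, so the OXPHOS median lay 0.44 below that of all genes, against 0.23 below it in the fit used here.

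**Figure D1:**
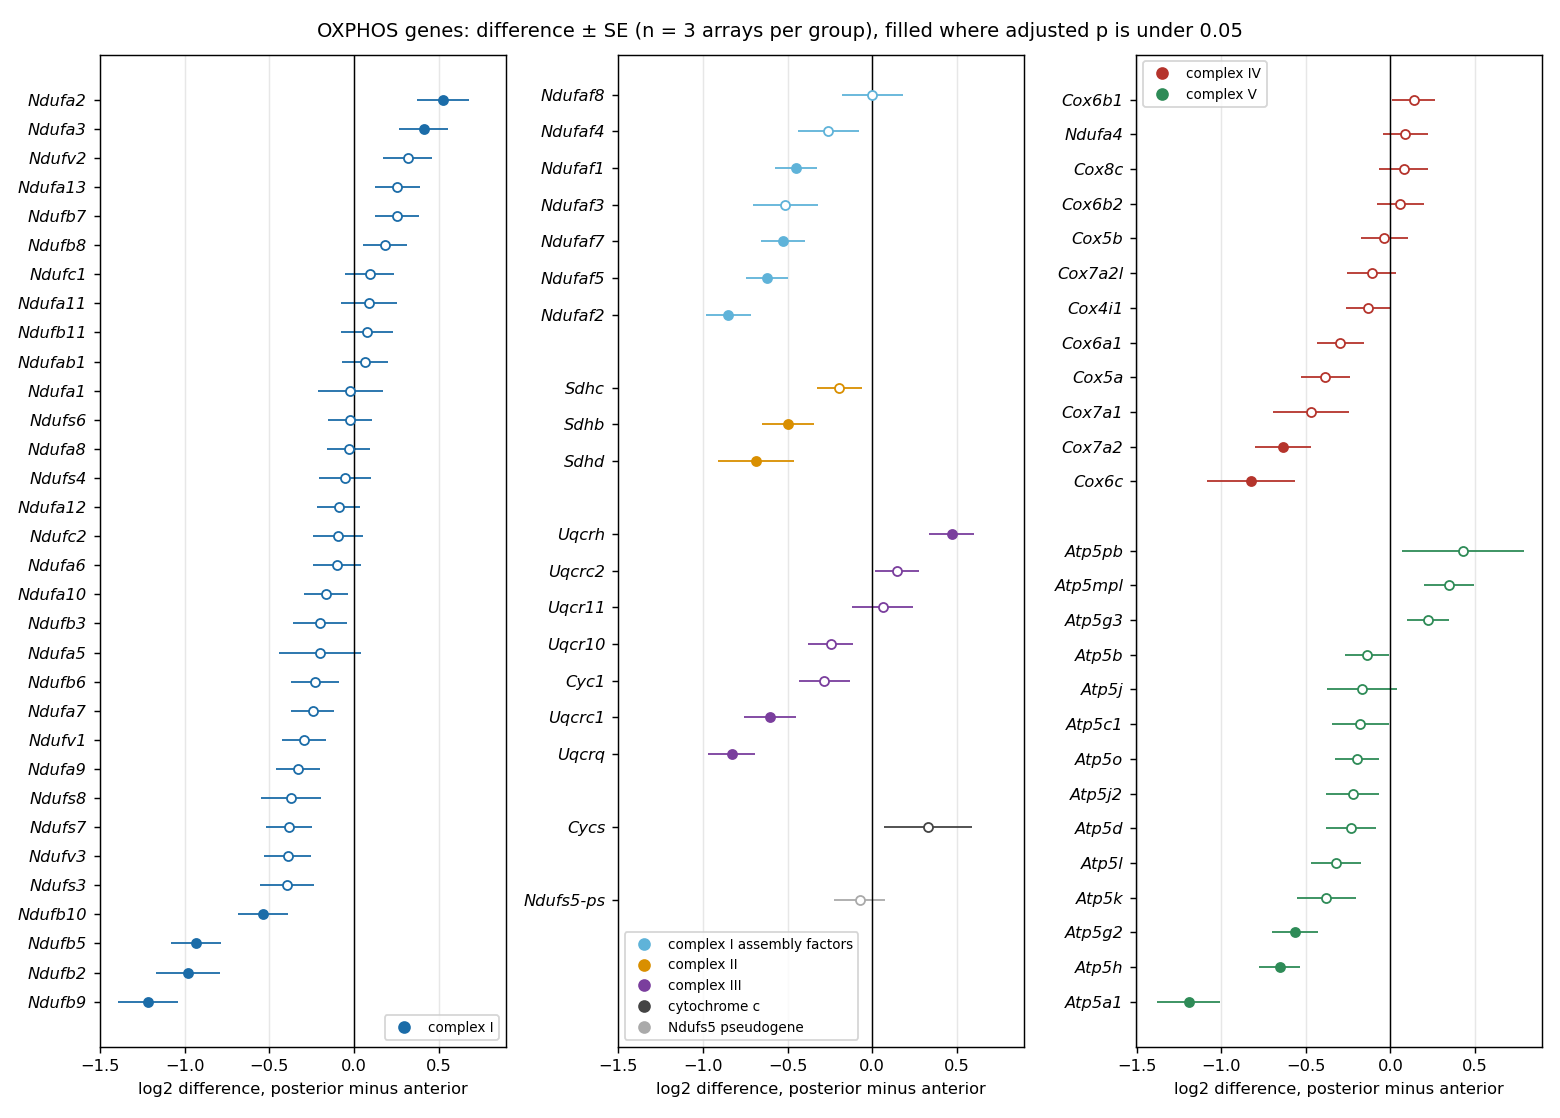
Difference between posterior and anterior (log2 scale, horizontal) for each of the 77 tested OXPHOS genes, ordered by size within each complex. Points are fitted differences, bars 1 SE (n = 3 arrays per group), and filled points passed at an adjusted p under 0.05. Most points lie between -0.5 and 0.5 and left of 0, with Ndufb9 and Atp5a1 at the left end of their complexes.

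Before the values, 4 promoters are shown because their genes differ in their calls, as lower, higher or not past. They were also chosen because each holds letters of a motif known from OXPHOS promoters. Each stretch is the 150 bases before the annotated start, 5′ to 3′ on the gene's strand, from RefSeq on GRCm38.p6, and capitals mark the motif found. Atp5g2 and Atp5g3 both encode subunit c, the ring of ATP synthase that turns as protons pass. Atp5g2 was lower in posterior and has a motif of nuclear respiratory factor 1 (NRF1). Atp5g3 did not pass and has an element of the estrogen-related receptors (ERR), TCAAGGTCA, on the opposite strand. Atp5h, which was lower, and Uqcrh, which was higher, each have a site of GABP and other ETS factors, CCGGAAGT, on the opposite strand.
Atp5g2 (chr15:102671048-102671197, minus strand): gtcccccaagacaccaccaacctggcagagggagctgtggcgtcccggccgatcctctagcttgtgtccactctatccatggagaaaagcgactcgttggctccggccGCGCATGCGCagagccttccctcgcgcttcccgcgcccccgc
Atp5g3 (chr2:73911327-73911476, minus strand): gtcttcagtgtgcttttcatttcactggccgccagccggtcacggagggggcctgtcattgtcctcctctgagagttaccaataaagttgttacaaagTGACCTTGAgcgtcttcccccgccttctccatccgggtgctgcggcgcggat
Atp5h (chr11:115419920-115420069, minus strand): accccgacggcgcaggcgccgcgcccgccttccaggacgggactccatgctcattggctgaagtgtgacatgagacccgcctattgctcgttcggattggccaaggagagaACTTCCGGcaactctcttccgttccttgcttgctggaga
Uqcrh (chr4:116075071-116075220, minus strand): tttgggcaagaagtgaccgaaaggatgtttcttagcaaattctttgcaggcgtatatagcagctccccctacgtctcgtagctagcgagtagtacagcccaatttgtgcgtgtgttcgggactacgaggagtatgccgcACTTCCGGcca

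RefSeq promoters of 250 bases before to 50 after the start were found for 67 of the 80 genes, 72 windows in all, and searched on both strands. None of the 4 motif strings contains another. The NRF1 letters stood in 9.72% of the 72 windows, against 0.971% of all 32851 promoters, and the YY1 letters AAGATGGC in 15.3%, against 2.75%. Wholly before the start, YY1 letters were found only in Atp5j. The other YY1 windows hold them across the start or in the 50 bases after it. NRF1 letters lay wholly before the start only in Atp5g2, Atp5k, Cox6a1, Ndufa11 and Ndufaf4. The ERR letters stood in 2.78% of member windows, against 0.423% of all promoters, and the GABP letters in 5.56%, against 3.89%. Among the 21262 promoters of protein-coding genes the shares were 1.33% for NRF1, 3.05% for YY1, 0.334% for ERR and 5.15% for GABP, close to the members' share for GABP. In windows of genes that were lower in posterior, NRF1 letters stood in 3 of 13 and YY1 letters in 0 of 13. In windows of genes that did not pass, NRF1 letters stood in 4 of 55 and YY1 letters in 10 of 55. For genes that were higher, NRF1 letters stood in 0 of 2 windows and YY1 letters in 1 of 2. Whether the motif shares differ between these classes was not tested. These matches describe letters in a window and are not evidence of binding.

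Complex I, the NADH dehydrogenase, had 6 of 32 genes past the threshold (18.8%, against 47.4% of all genes), with 4 lower in posterior and 2 higher. Its median difference was -0.10. All 4 lower genes encode accessory subunits of the membrane arm. Ndufb9 lay at 5.47, 5.42 and 5.59 on the posterior arrays, against 6.52, 7.08 and 6.52 on the anterior arrays. The groups did not overlap, and it was 2.32-fold lower (log2 -1.22, SE 0.18, adjusted p = 0.000856). Values of Ndufb2 were 5.05, 4.82 and 5.07 on the posterior arrays, against 5.76, 6.36 and 5.76 on the anterior arrays, where posterior lay near the detection limit of 4.70 to 4.91 (log2 -0.98, SE 0.19, adjusted p = 0.00357). For Ndufb5 the values were 6.003, 6.21 and 6.34 on the posterior arrays, against 6.98, 7.14 and 7.25 on the anterior arrays (log2 -0.94, SE 0.15, adjusted p = 0.00127). Posterior was lower on every array in all of these, while 58.3% of all genes had groups without overlap. Ndufb10 gave 7.995, 8.01 and 8.22 on the posterior arrays, against 8.69, 8.73 and 8.41 on the anterior arrays (log2 -0.54, SE 0.15, adjusted p = 0.0182). Its call was lost without anterior replicate 1 (adjusted p = 0.0619), without anterior replicate 2 (0.0502), without posterior replicate 1 (0.0601) or without posterior replicate 2 (0.0676).

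The 2 complex I genes that were higher encode accessory subunits too. Ndufa2, part of the arm that reaches into the matrix, lay at 11.47, 11.42 and 11.63 on the posterior arrays, against 11.13, 10.73 and 11.08 on the anterior arrays. It was 1.44-fold higher (log2 0.53, SE 0.15, adjusted p = 0.0236), without overlap of the groups. This call was lost without anterior replicate 2 (adjusted p = 0.0631), without posterior replicate 1 (0.0519), without posterior replicate 2 (0.052) or without posterior replicate 3 (0.0829). Ndufa3 gave 11.51, 11.12 and 11.32 on the posterior arrays, against 10.99, 10.87 and 10.86 on the anterior arrays (log2 0.41, SE 0.15, adjusted p = 0.0495), and a separate probe of the gene gave nearly the same difference (log2 0.41, SE 0.14, adjusted p = 0.043). The call on its brighter probe was lost without anterior replicate 1 (adjusted p = 0.0788), without anterior replicate 2 (0.0984), without anterior replicate 3 (0.0946), without posterior replicate 1 (0.164) or without posterior replicate 3 (0.114). The complex I count fell to 3 of 32 without posterior replicate 1 or without anterior replicate 2.

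None of the 5 measured core subunits of complex I, most of which carry cofactors of electron transfer, passed in the fit used here. Ndufs7, which binds the last iron-sulfur cluster before ubiquinone, was just outside the threshold (log2 -0.38, SE 0.14, adjusted p = 0.0502), with 10.38, 10.25 and 10.49 on the posterior arrays, against 10.79, 10.84 and 10.64 on the anterior arrays. It passed without anterior replicate 3 (adjusted p = 0.0417) and in 7 other settings. Ndufs3 (log2 -0.40, SE 0.16, adjusted p = 0.0771), Ndufs8 (log2 -0.37, SE 0.18, adjusted p = 0.123) and Ndufv1, the subunit that binds NADH (log2 -0.30, SE 0.13, adjusted p = 0.0982), had negative differences. Without anterior replicate 3 Ndufs3 passed too (adjusted p = 0.0241). In the authors' values Ndufs7 (0.0192), Ndufs3 (0.0496) and Ndufv1 (0.0345) all passed as lower, and Ndufv1 did so in 5 settings. Ndufv2, the partner of Ndufv1, had a positive one (log2 0.32, SE 0.15, adjusted p = 0.118). The accessory subunits Ndufa1, Ndufa8, Ndufs4 and Ndufs6 differed by less than 1 SE at their brightest probes. At dimmer probes, given below, Ndufs4 and Ndufs6 were lower in posterior.

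Complex I assembly factors, which help to build the complex and are not part of it, were lower in posterior in 4 of 7 genes (57.1%, against 21.5% of all genes) and had a median difference of -0.51. Ndufaf2 lay at 7.61, 7.39 and 7.58 on the posterior arrays, against 8.34, 8.46 and 8.34 on the anterior arrays, 1.8-fold lower (log2 -0.85, SE 0.13, adjusted p = 0.00115). Ndufaf5, which modifies Ndufs7, gave 7.23, 7.14 and 7.21 on the posterior arrays, against 7.75, 7.82 and 7.87 on the anterior arrays (log2 -0.62, SE 0.12, adjusted p = 0.00415). The arginine methyltransferase gene Ndufaf7 gave 7.17, 7.18 and 7.22 on the posterior arrays, against 7.59, 7.78 and 7.79 on the anterior arrays (log2 -0.53, SE 0.13, adjusted p = 0.0107). In none of the 3 did the groups overlap, and 58.3% of all genes had no overlap either. Ndufaf1, of the complex that assembles the membrane arm, was also lower (log2 -0.45, SE 0.12, adjusted p = 0.0188), a call lost without posterior replicate 2 (adjusted p = 0.0517) or without posterior replicate 3 (0.0721). Ndufaf8 showed a difference of 0.00 (SE 0.18), and Ndufaf3 (log2 -0.51, SE 0.19, adjusted p = 0.0595) and Ndufaf4 (log2 -0.26, SE 0.18, adjusted p = 0.284) did not pass. In the wider list of 13 tested complex I assembly genes, 6 were lower (46.2%, against 21.5% of all genes) and 0 higher at this threshold in limma. Ecsit (log2 -0.92, SE 0.13, adjusted p = 0.000662) and Foxred1 (log2 -0.82, SE 0.13, adjusted p = 0.00109) were the leading ones outside the Ndufaf genes. With arrays scaled to a common median 0 of the 7 Ndufaf genes passed, with a median of -0.24.

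Complex II, succinate dehydrogenase, was measured with 3 genes, of which 2 were lower in posterior (66.7%, against 21.5% of all genes). Sdhb, the iron-sulfur subunit, lay at 9.17, 8.92 and 9.27 on the posterior arrays, against 9.57, 9.79 and 9.49 on the anterior arrays (log2 -0.50, SE 0.15, adjusted p = 0.0288). A second probe gave almost the same difference (log2 -0.51, SE 0.16, adjusted p = 0.032). The call was lost without anterior replicate 1 (adjusted p = 0.0625), without anterior replicate 2 (0.0797), without posterior replicate 1 (0.0588) or without posterior replicate 2 (0.112). Sdhd, a membrane anchor, gave 4.78, 4.73 and 5.04 on the posterior arrays, against 5.02, 5.84 and 5.75 on the anterior arrays (log2 -0.69, SE 0.22, adjusted p = 0.0364), and its groups overlapped, since posterior replicate 3 lay above anterior replicate 1. Its levels were near the detection limit, and 2 of 3 posterior arrays detected it. That call was lost without anterior replicate 2 (adjusted p = 0.1), without anterior replicate 3 (0.0996), without posterior replicate 1 (0.0905) or without posterior replicate 2 (0.117). Without background correction its difference was -0.32 (0.0665) and with an offset of 50 it was -0.37 (0.0637), both not past, and without a filter it did not pass either (0.124). The other anchor gene, Sdhc, did not pass (log2 -0.20, SE 0.13, adjusted p = 0.275). No complex II gene passed without anterior replicate 2, posterior replicate 1 or posterior replicate 2.

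Complex III, the cytochrome bc1 complex, had genes past the threshold in both directions, 2 of 7 lower and 1 higher. That is 42.9% past and 28.6% lower, against 47.4% and 21.5% of all genes. Uqcrq, a small subunit at the ubiquinone site, lay at 7.39, 7.38 and 7.20 on the posterior arrays, against 8.30, 8.04 and 8.12 on the anterior arrays, 1.78-fold lower (log2 -0.83, SE 0.14, adjusted p = 0.00158). Uqcrc1, a core protein, gave 10.80, 10.62 and 10.47 on the posterior arrays, against 11.34, 11.34 and 11.03 on the anterior arrays (log2 -0.60, SE 0.15, adjusted p = 0.0133). Its partner Uqcrc2 did not pass and had a positive difference (log2 0.14, SE 0.13, adjusted p = 0.401). The Uqcrc1 call was lost without anterior replicate 1 (adjusted p = 0.0504) or without posterior replicate 3 (0.0525). Uqcrh, the hinge protein that helps cytochrome c1 dock with cytochrome c, lay at 12.84, 12.61 and 12.71 on the posterior arrays, against 12.31, 12.24 and 12.19 on the anterior arrays, 1.38-fold higher (log2 0.47, SE 0.13, adjusted p = 0.0192). This call was lost without posterior replicate 1 (adjusted p = 0.0714) or without posterior replicate 3 (0.0544), and without posterior replicate 3 the complex III count was 1. Cyc1, which encodes cytochrome c1, did not pass (log2 -0.28, SE 0.15, adjusted p = 0.167), nor did Uqcr10 (log2 -0.25, SE 0.13, adjusted p = 0.169) and Uqcr11 (log2 0.06, SE 0.18, adjusted p = 0.815).

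Cycs encodes cytochrome c, the mobile carrier between complexes III and IV that also triggers apoptosis when released. It lay at 10.46, 10.18 and 9.74 on the posterior arrays, against 10.10, 9.27 and 10.02 on the anterior arrays. The groups overlapped and the difference did not pass (log2 0.33, SE 0.26, adjusted p = 0.348). Anterior replicate 2 was the lowest array for Cycs, for Ndufa5 and for Atp5pb, subunit b of the ATP synthase stalk. Atp5pb gave 11.24, 10.64 and 10.39 on the posterior arrays, against 10.82, 9.48 and 10.68 on the anterior arrays (log2 0.43, SE 0.36, adjusted p = 0.371), the widest spread within a group among the members (SD 0.73 in anterior). Over the members the median SD was 0.13 in posterior and 0.12 in anterior, and 2 genes, Atp5pb and Cox6c, had an SD over 0.5 in either group.

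Complex IV, cytochrome c oxidase, had 2 of 12 genes past the threshold, both lower in posterior (16.7%, against 21.5% lower and 47.4% past among all genes). Cox6c lay at 10.23, 9.62 and 10.66 on the posterior arrays, against 10.71, 11.03 and 11.24 on the anterior arrays (log2 -0.82, SE 0.26, adjusted p = 0.0325). Posterior replicate 2 was the lowest array, and the call was lost without anterior replicate 2 (adjusted p = 0.0666), without anterior replicate 3 (0.093), without posterior replicate 1 (0.0624) or without posterior replicate 2 (0.0988). Cox7a2, the isoform of subunit 7a used in most tissues, gave 6.11, 6.18 and 5.97 on the posterior arrays, against 6.87, 6.89 and 6.41 on the anterior arrays (log2 -0.63, SE 0.17, adjusted p = 0.0151). Its call was lost without anterior replicate 1 (adjusted p = 0.0584) or without posterior replicate 3 (0.0542). Cox7a1, the heart and muscle isoform of the same subunit, was detected on all arrays at 8.83 ± 0.37 in posterior, against 9.30 ± 0.31 in anterior (SD, n = 3 each) and did not pass (log2 -0.47, SE 0.23, adjusted p = 0.13). It did pass without posterior replicate 1 (adjusted p = 0.0394) and with the replicate number as a block (0.0318). Of the 4 muscle markers beside it, Myog (log2 -0.33, SE 0.20), Myh6 (log2 -0.14, SE 0.16) and Des (log2 0.28, SE 0.15) did not pass, and Actc1 was higher in posterior, with no anterior array detecting it.

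None of the other genes of complex IV passed in the fit used here. Cox4i1, which encodes the main isoform of the regulatory subunit 4, lay at 12.92 ± 0.12 in posterior, against 13.05 ± 0.02 in anterior (SD, n = 3 each) and did not pass, with log2 -0.14, SE 0.13, adjusted p = 0.438. Cox5a (log2 -0.38, SE 0.14, adjusted p = 0.0621) did not pass here, though its groups did not overlap. It passed as lower in the authors' values (adjusted p = 0.0294) and without background correction (0.0291). It also did so with an offset of 50 (0.0321) and with trend and robust variances (0.0215). Cox5b did not pass (log2 -0.04, SE 0.14, adjusted p = 0.854). Cox6a1 (log2 -0.30, SE 0.14, adjusted p = 0.118), Cox6b1 (log2 0.14, SE 0.13, adjusted p = 0.418) and Ndufa4 (log2 0.09, SE 0.13, adjusted p = 0.638) did not pass. With median scaling the small differences of Cox6b1 and Ndufa4 turned negative, at -0.03 and -0.11. Cox7a2l, whose protein joins complexes III and IV, also did not pass (log2 -0.11, SE 0.14, adjusted p = 0.564). The testis isoform gene Cox6b2 was detected on all arrays at 7.95 ± 0.12 in posterior, against 7.89 ± 0.13 in anterior (SD, n = 3 each) and did not pass, with log2 0.06, SE 0.14, adjusted p = 0.767. The testis isoform gene Cox8c was detected on 2 posterior arrays and 1 anterior array, near the detection limit (log2 0.08, SE 0.14, adjusted p = 0.698), and its small difference was negative in the authors' values (-0.02). Of the germ line markers, Ddx4 lay at 4.98 ± 0.17 in posterior, against 4.804 ± 0.08 in anterior (SD, n = 3 each) and Dazl at 5.71 ± 0.71 in posterior, against 5.26 ± 0.55 in anterior (SD, n = 3 each), and neither passed.

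Complex V, the ATP synthase, had 3 of 14 genes past the threshold, all lower in posterior (21.4%, against 21.5% lower and 47.4% past among all genes). Atp5a1, the alpha subunit of the catalytic head, lay at 6.59, 6.39 and 6.83 on the posterior arrays, against 7.53, 8.10 and 7.76 on the anterior arrays. It was 2.29-fold lower (log2 -1.19, SE 0.19, adjusted p = 0.0012), although a dimmer probe of the same gene did not pass (log2 -0.55, SE 0.21, adjusted p = 0.0606). Atp5b, whose beta subunit alternates with alpha in the head, lay at 14.07 ± 0.12 in posterior, against 14.21 ± 0.04 in anterior (SD, n = 3 each) and did not pass (log2 -0.14, SE 0.13, adjusted p = 0.435). Atp5h, subunit d of the stalk, lay at 9.14, 9.18 and 9.18 on the posterior arrays, against 9.82, 9.88 and 9.77 on the anterior arrays (log2 -0.66, SE 0.12, adjusted p = 0.00298). Its groups did not overlap.

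Subunit c is encoded by several genes whose mature proteins are identical. Atp5g2 lay at 10.24, 10.15 and 10.28 on the posterior arrays, against 10.87, 10.88 and 10.61 on the anterior arrays, 1.48-fold lower (log2 -0.56, SE 0.14, adjusted p = 0.0105). Atp5g3 gave 13.45, 13.53 and 13.51 on the posterior arrays, against 13.26, 13.24 and 13.32 on the anterior arrays and had a positive difference that did not pass (log2 0.22, SE 0.12, adjusted p = 0.18). All posterior values lay above all anterior values for Atp5g3 and below them for Atp5g2. Atp5g3 passed as higher without background correction (adjusted p = 0.0475) and with trend and robust variances (0.0423), while with median scaling its difference was -0.06. Levels of different probes are not on a common scale, so the genes are compared only by their differences, and the difference between them was not tested. The rest of complex V had differences between -0.38 (Atp5k) and 0.43 (Atp5pb), among them the gamma subunit Atp5c1 (log2 -0.18, SE 0.17, adjusted p = 0.43).

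**Figure D2:**
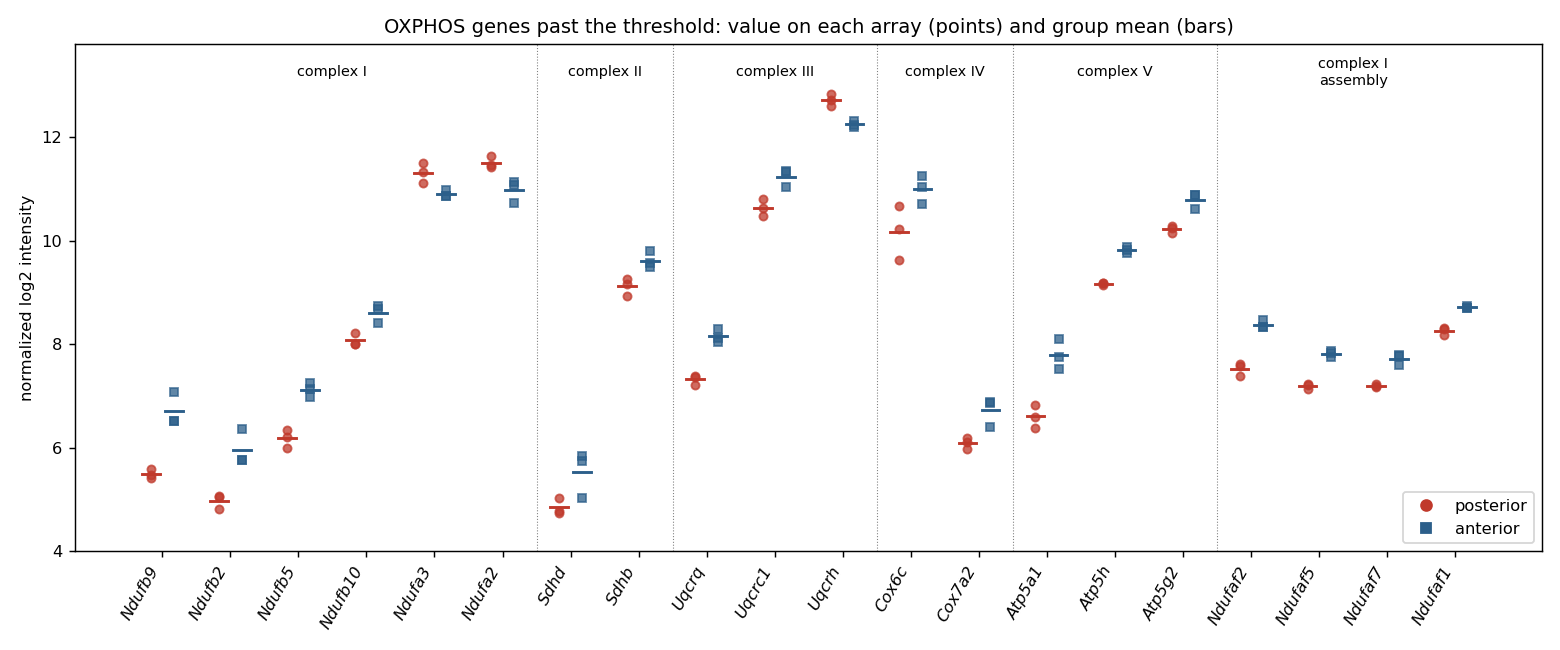
Normalized log2 intensity (vertical) on each array for the 20 OXPHOS genes past the threshold, by complex, with posterior arrays as circles left of the anterior arrays as squares and bars at the group means (n = 3). Ndufb9, Ndufb5 and Atp5h show wide gaps between the groups, while in Sdhd they overlap and in Cox6c they nearly touch.

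Most of the genes that were lower were dim. Split at a mean level of 9 over the 6 arrays, a value chosen after seeing the data, the 20 dim members had 12 lower in posterior and 0 higher, with a median of -0.53. Among all dim genes of the array 48.3% passed, 21.5% as lower and 26.8% as higher, with a median of 0.04. The 57 bright members had 5 lower (8.77%) and 3 higher, with a median of -0.14, where 44.5% of all bright genes passed, 21.5% as lower and 22.9% as higher. Within complex I, 4 of 6 dim genes were lower and 0 of 26 bright genes, of which 2 were higher. These counts rest on the brightest probe of each gene in the fit used here. In the authors' values the bright genes Ndufs7, Ndufs3 and Ndufv1 passed as lower. Less bright probes over level 9 were lower in the limma fit for Ndufv3 (level 10.81, adjusted p = 0.0269) and Ndufs4 (level 9.14, adjusted p = 0.00266). The 7 assembly factors were all dim. Dim and bright genes over the whole array had similar medians (0.04 and 0.02), and what brightness contributes to the OXPHOS differences was not tested.

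**Figure D3:**
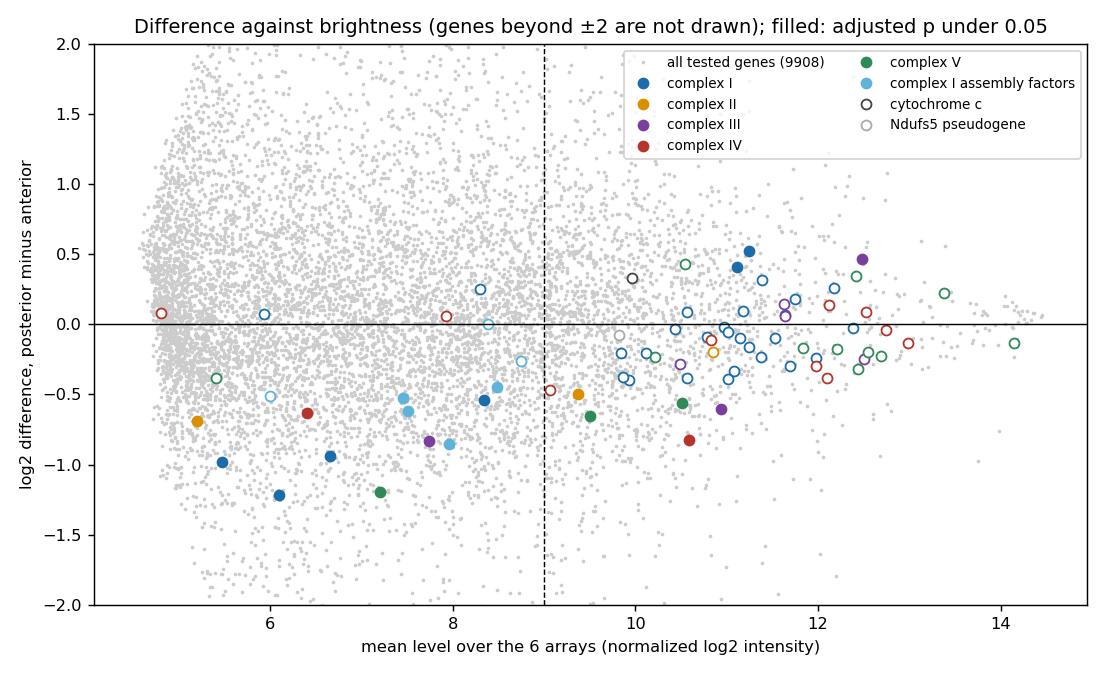
Difference between posterior and anterior (log2 scale, vertical) against the mean level over the 6 arrays (normalized log2 intensity, horizontal). Grey dots are all tested genes, coloured circles OXPHOS genes, filled where the adjusted p is under 0.05, the dashed line marks a level of 9, and genes beyond -2 or 2 are not drawn. OXPHOS genes right of the line crowd around 0, and most filled circles lie left of it and below 0.

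Probes of the same gene did not always say the same. Of 22 members with several tested probes, 7 had some past the threshold and others not, and 0 had probes past it in opposite directions. In Ndufs4, a subunit of the matrix arm, the brightest probe did not pass (log2 -0.05, SE 0.15, adjusted p = 0.806), but the other 3 were lower in posterior, by 0.70, 0.78 and 0.80 on the log2 scale, with adjusted p between 0.00219 and 0.00638. Ndufs6, Ndufb8 and Atp5o likewise did not pass at the brightest probe and were lower at a dimmer one, as log2 -0.69, SE 0.13, adjusted p = 0.00326 for Ndufs6, log2 -0.53, SE 0.15, adjusted p = 0.0188 for Ndufb8 and log2 -0.59, SE 0.13, adjusted p = 0.00577 for Atp5o. For Ndufv3 the brightest probe was just outside the threshold (log2 -0.39, SE 0.14, adjusted p = 0.0526). Its other 2 probes were lower (log2 -0.55, SE 0.17, adjusted p = 0.0269 and log2 -0.51, SE 0.17, adjusted p = 0.0421). Atp5j went the other way, with log2 -0.17, SE 0.21, adjusted p = 0.547 at its bright probe and log2 0.86, SE 0.23, adjusted p = 0.0147 at its dim one. The dimmest probe gave a lower difference than the brightest in 17 of the 22 genes (77.3%), against 66.7% of all 3560 genes with several tested probes, and the median gap was -0.13 in both. With the dimmest probe of each gene in place of the brightest, 21 members were lower and 4 higher. Whether a probe also binds processed pseudogene copies or other transcripts of its gene was not tested.

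**Figure D4:**
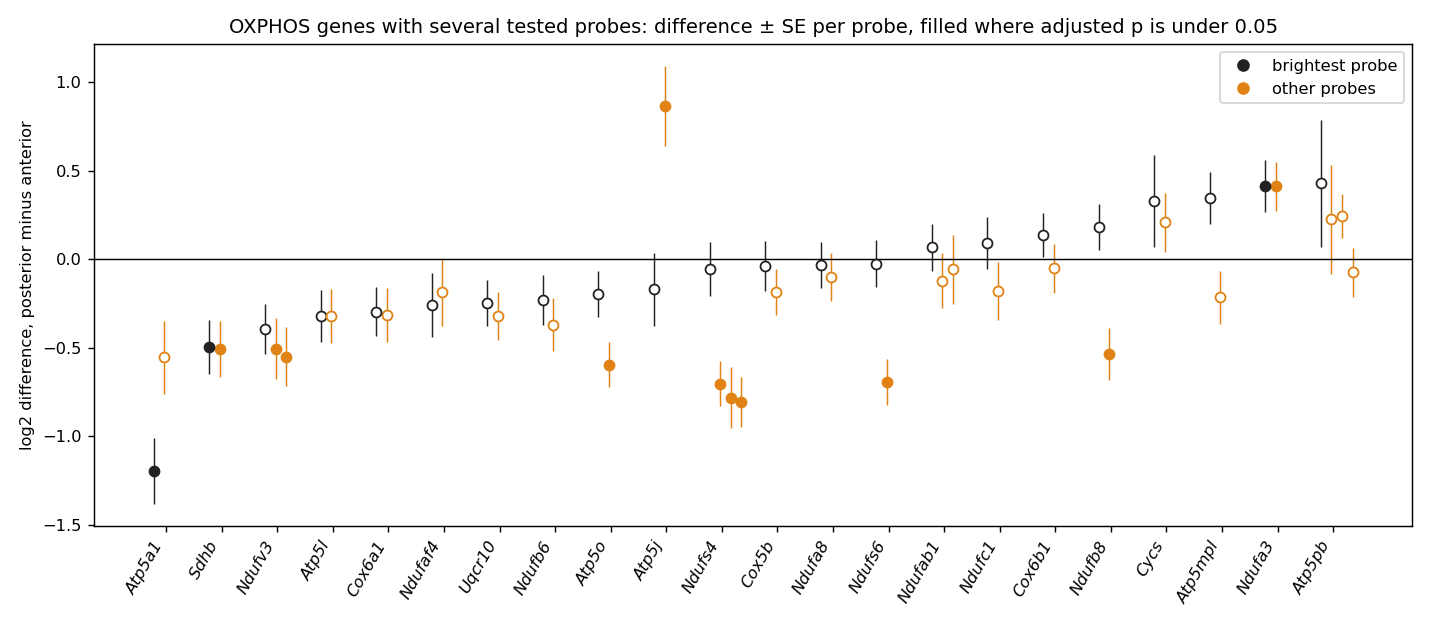
Difference between posterior and anterior (log2 scale, vertical) for every tested probe of the 22 OXPHOS genes with several, with bars of 1 SE (n = 3 arrays per group). Black marks the brightest probe, orange the others, and filled points passed. Ndufs4, Ndufs6, Ndufb8 and Atp5o have filled orange points well below an open black one, and Atp5j one above.

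Genes that support the chain were taken from lists on assembly, regulation, fuel supply and transport. Without the members they held 90 tested genes, of which 26 were lower in posterior, 5 were higher and 59 did not pass, with a median difference of -0.25. Thus 34.4% passed and 28.9% were lower, against 47.4% and 21.5% of all genes. With median scaling 15 passed. Of 21 complex IV assembly genes 6 were lower and 2 higher. Lrpprc, which stabilizes mitochondrial mRNA, lay at 8.13, 8.09 and 8.04 on the posterior arrays, against 9.03, 8.81 and 9.11 on the anterior arrays (log2 -0.89, SE 0.14, adjusted p = 0.00104), and Surf1 (log2 -0.80, SE 0.16, adjusted p = 0.00413), Sco1, a copper chaperone (log2 -0.75, SE 0.16, adjusted p = 0.00514), and Coa6 (log2 -0.66, SE 0.19, adjusted p = 0.023) were lower too. Coa3 (log2 0.46, SE 0.13) and Cox19 (log2 0.48, SE 0.14) were higher. The calls of Coa6, Coa3 and Cox19 were lost without posterior replicate 3 for Coa6 and Coa3 (adjusted p = 0.0589 and 0.0617) and without posterior replicate 1 for Cox19 (0.0849), among other arrays. Of 8 complex II and III assembly genes 1 was lower, Bcs1l (log2 -0.48, SE 0.14, adjusted p = 0.0235), and among 5 of complex V Fmc1 was lower (log2 -0.80, SE 0.15, adjusted p = 0.00288) and Tmem242 higher (log2 0.37, SE 0.12, adjusted p = 0.0405). Bcs1l did not pass without posterior replicate 1 (0.0684), and Tmem242 failed in each fit that left out 1 array (0.0654 to 0.13).

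Regulators of OXPHOS genes and of mitochondrial DNA had 17 of 18 negative differences, against 48.0% of all genes. In the limma fit 6 were lower in posterior (33.3%, against 21.5% of all genes) and 0 higher (against 25.9%). Ppargc1b, which encodes the coactivator PGC-1beta, lay at 4.54, 4.76 and 4.70 on the posterior arrays, against 6.60, 6.59 and 6.36 on the anterior arrays (fitted log2 -1.85, SE 0.14, adjusted p = 2.23e-05). As 1 of 3 posterior arrays detected it and the posterior values lay near the detection limit, no fold is given. Esrrb, an orphan receptor of the ERR family that is also a pluripotency gene, gave 8.72, 8.28 and 7.99 on the posterior arrays, against 12.67, 12.94 and 12.68 on the anterior arrays (log2 -4.43, SE 0.20, adjusted p = 1.92e-06). Pprc1, a relative of PGC-1 coactivators, gave 9.34, 9.55 and 9.43 on the posterior arrays, against 10.43, 10.60 and 10.14 on the anterior arrays (log2 -0.95, SE 0.16, adjusted p = 0.00158). These 3 had no overlap between the groups, which held for 58.3% of all genes too. Tefm, a factor of mitochondrial transcription, was lower too (log2 -0.88, SE 0.19, adjusted p = 0.00549). Nrf1 (log2 0.13, SE 0.14, adjusted p = 0.493), Gabpa (log2 -0.33, SE 0.20, adjusted p = 0.221), Esrra (log2 -0.21, SE 0.17, adjusted p = 0.369) and Tfam, which packages mitochondrial DNA (log2 -0.27, SE 0.17, adjusted p = 0.237), did not pass.

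In fuel supply, 4 of 14 citric acid cycle and pyruvate dehydrogenase genes were lower in posterior (28.6%, against 21.5% of all genes) and 0 higher in the limma fit (against 25.9%). Pdhb, a pyruvate dehydrogenase subunit, lay at 8.92, 8.58 and 8.75 on the posterior arrays, against 9.91, 10.28 and 10.09 on the anterior arrays, 2.54-fold lower (log2 -1.34, SE 0.16, adjusted p = 0.000234). Its partner Pdha1 (log2 -0.79, SE 0.16, adjusted p = 0.0043), Idh2 (log2 -1.06, SE 0.26, adjusted p = 0.0113) and Idh3a (log2 -0.91, SE 0.15, adjusted p = 0.00193) were lower too, while Cs, the citrate synthase gene, did not pass (log2 0.18, SE 0.15, adjusted p = 0.385). Of 13 genes of coenzyme Q and the electron transfer flavoprotein, Coq3 (log2 -0.66, SE 0.13, adjusted p = 0.00436) and Etfb (log2 -0.42, SE 0.15, adjusted p = 0.048) were lower and Etfdh was higher (log2 0.59, SE 0.16, adjusted p = 0.0171). Etfb failed in each fit that left out 1 array (adjusted p = 0.054 to 0.166), and Etfdh lost its call without anterior replicate 1 (0.0592) or posterior replicate 1 (0.056). Of 10 listed carriers 5 had a named probe, and all 5 passed, 4 lower and 1 higher. Among all genes 47.4% passed, 21.5% as lower and 25.9% as higher. Slc25a5, the ADP and ATP exchanger, lay at 12.34, 12.05 and 12.22 on the posterior arrays, against 13.14, 13.08 and 13.20 on the anterior arrays (log2 -0.94, SE 0.14, adjusted p = 0.000764). The outer membrane channels Vdac2 (log2 -0.80, SE 0.14, adjusted p = 0.00191) and Vdac1 (log2 -0.64, SE 0.13, adjusted p = 0.0051) and the phosphate carrier Slc25a3 (log2 -0.58, SE 0.17, adjusted p = 0.0232) were lower, and Vdac3 was higher (log2 0.36, SE 0.12, adjusted p = 0.0447). Vdac3 failed in each fit that left out 1 array (adjusted p = 0.0546 to 0.124), and Slc25a3 lost its call without anterior replicate 2 (0.0526), posterior replicate 1 (0.068), posterior replicate 2 (0.0631) or posterior replicate 3 (0.0539).

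**Figure D5:**
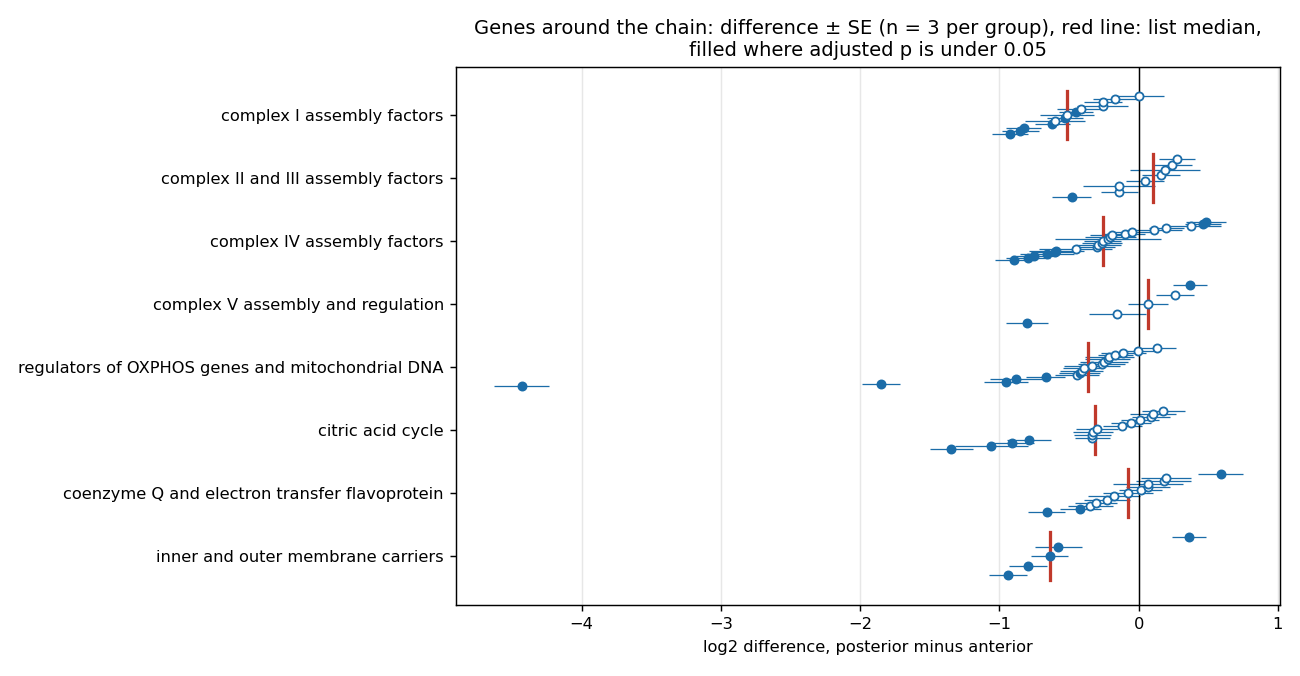
Difference between posterior and anterior (log2 scale, horizontal) for each tested gene of 8 lists around the respiratory chain, with bars of 1 SE (n = 3 arrays per group), filled points past the threshold and a red line at each list's median. Esrrb at -4.43 and Ppargc1b at -1.85 stand far left of the other genes, and medians of most lists lie below 0.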

How the data were processed

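Biotin-labelled cRNA was made from total RNA, per the labels' protocols, and each sample was read on 1 one-colour array. The deposited signal table holds linear intensities of 45281 probes, neither background subtracted nor normalized, and detection p-values, per the file headers. The authors' deposited log2 table holds 18312 probes. It equals quantile-normalized log2 intensities of those probes to within 5e-09, and the submitters' processing notes name limma.

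For the fit, neqc (limma 3.58.1, R 4.3.3) was applied with an offset of 16, which makes fold changes of dim probes smaller. Probes had to be detected (p-value under 0.05) on 3 or more of the 6 arrays. These 18242 were fitted with lmFit and eBayes, and p-values were Benjamini-Hochberg adjusted over all of them. The groups came from the sample titles. Names came from GEO's platform annotation (15550 probes with 1 symbol, 9 with several, 2753 with none). Of these 15537 were found in RefSeq and 0 symbols changed.

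The detected probes numbered 18657, 17784 and 18025 on the posterior arrays and 16052, 16916 and 17705 on the anterior arrays. The number of arrays, 3 per group, limits the precision. The rule names, per complex, the 4 largest changes in each direction among genes that 2 or more arrays per group detected, all isoform families, the core subunits and up to 4 leading genes in each direction of other lists. Further genes, such as those with disagreeing probes, were named after their values were seen. Members and lists were chosen with earlier results of these data known. The steps were tested on simulated data. Alternatives covered background, offset, scaling, filter, probe choice, variances, block and single arrays. Figures used matplotlib 3.10.9 in Python 3.11.15.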

Additional observations from a re-analysis of the deposited data

How the results depend on the processing

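Of the 20 OXPHOS genes past the threshold, 19 still passed in the same direction without background correction or with an offset of 50, 20 in the authors' values and with trend and robust variances, 17 without a filter and 4 with median scaling. OXPHOS genes that were higher numbered 5, against 3, both with no background correction and under trend and robust variances. With median scaling 4 of 77 passed, 0 higher and 4 lower. The median difference of the OXPHOS genes lay between -0.241 and -0.132 over all settings. All genes past the threshold were higher in 54.7% of cases, in 72.1% with median scaling and in 48.7% among probes detected on all arrays. Leaving out 1 array gave 0 to 2 higher and 12 to 19 lower OXPHOS genes (14 to 21 in all).

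Complex I had 10 genes past the threshold without background correction, with an offset of 50, with the mean of a gene's probes, with trend and robust variances and with the dimmest probe, 12 in the authors' values and 3 with median scaling, against 6. Complex II had 1 without background correction, with an offset of 50, without a filter, among probes detected on all arrays and with the replicate block, and 0 with median scaling, against 2. Complex III had 0 and complex IV 0 with median scaling, against 3 and 2, and complex IV 1 without a filter. Complex V had 5 without background correction, 6 with trend and robust variances and 1 with median scaling, against 3. The 90 genes of other lists had 15 with median scaling, against 31. Leaving out 1 array gave 3 to 7 in complex I, 0 to 2 in complex II, 1 to 3 in complex III, 1 to 2 in complex IV and 3 to 4 in complex V. The causes were not tested.

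Among the named genes followed through all settings, each value with a changed sign was itself not past the threshold. Outside them, the dimmest probe turned Ndufb8 and Atp5j to the opposite sign, past the threshold (adjusted p = 0.0188 and 0.0147). With median scaling Atp5g3 was at -0.064, Cox6b1 at -0.030 and Ndufa4 at -0.113. Cox6b1 was at -0.050 with the dimmest probe and Cox8c at -0.022 in the authors' values. Leaving out 1 array put Cox5b between -0.122 and 0.006 and Cox8c between -0.008 and 0.169. The dimmest probe and the split by brightness were chosen after seeing the data. Same-numbered samples deviated with correlations of 0.29, 0.16 and -0.08. Posterior replicates 1 and 2, but not 3, correlated best with the anterior replicate of their own number. With 3 arrays per group these values do not settle whether the numbers mark pairs. With the replicate block 19 of the 20 calls remained, Sdhb was lost (adjusted p = 0.0533), and 20 OXPHOS genes passed, 3 higher and 17 lower.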
